A study of Mus musculus with 24 samples.

Results

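The comparison described here is that of mouse morulae made Zfp622 knockout against wild-type morulae, with 4 RNA sequencing libraries of each. These 8 libraries were chosen by their titles from the 24 of the series, which also holds Ttf1 knockout morulae and the late 2-cell stage of all 3 genotypes, again with 4 libraries a group. Zygotes came from superovulated B6D2F1 females of 3 to 4 weeks mated with males of that strain. For the knockouts, Cas9 protein at 100 ng/µL was injected into the cytoplasm with 3 guide RNAs against 1 gene at 50 ng/µL each, and the embryos were cultured in KSOM medium. Wild-type libraries are titled NC, an abbreviation left unexplained, and whether their zygotes received an injection is not stated. Each library was a separate pool of 10 embryos. The knockout was made anew in each embryo rather than bred, no editing rate is given in the sources used here, and a pool can therefore hold embryos and cells with different alleles.

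Zfp622 encodes a cytoplasmic zinc finger protein, the mammalian relative of yeast Rei1. Precursors of the large ribosomal subunit leave the nucleus with export and assembly factors still bound, and these must be taken off in the cytoplasm before the subunit can translate. Rei1 acts in this late step, on the release of the factor whose mammalian relative is Pa2g4. Disturbed ribosome assembly is widely known to raise p53, because free ribosomal proteins of the large subunit bind Mdm2, the ligase that marks p53 for destruction. The morula is the stage at which blastomeres compact, form junctions and polarise, ahead of the first split into trophectoderm and inner cell mass. The genotype question is which transcripts differ once Zfp622 has been targeted.

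Zfp622 RNA was lower in all 4 knockout libraries. It stood at 59.1, 50.2, 51.0 and 48.0 CPM (counts scaled to a common library size) in the wild-type libraries and at 17.6, 16.98, 19.9 and 6.09 CPM in the knockout libraries. The groups did not overlap, and knockout library 4 held the least, with 77 read pairs and 11.7% of the wild-type mean, against 32.6% to 38.2% in the others. The means were 52.1 ± 4.84 and 15.1 ± 6.16 CPM (SD, n = 4), a log2 fold change of -1.78 ± 0.28 (SE) with an adjusted p of 0.00105. The gene lies at chr15:25984366-25998481 on the plus strand of GRCm38. RNA that carries small insertions or deletions is still counted, so a level above 0 does not measure how much intact protein remained. Ttf1, which was not targeted in these embryos, was at 43.1 ± 1.50 and 48.3 ± 6.94 CPM (log2 fold change 0.16 ± 0.10, adjusted p = 0.237). Of the genes within 500 kb of Zfp622 that could be tested, Myo10, an unconventional myosin, did not pass (log2 fold change 0.41 ± 0.19, adjusted p = 0.124), and the predicted gene Gm4824 fell from 2.34 to 1.16 CPM (adjusted p = 0.00945). Over chromosome 15 the median log2 fold change was -0.04 for the 46 genes tested proximal to Zfp622 and -0.06 for the 476 distal to it, beside 0.03 over all genes tested. Of the proximal genes 7 rose and 9 fell, and of the distal genes 51 rose and 90 fell. Over all genes 15.6% rose and 13.5% fell. Falls also outnumbered rises on chromosome 18, with 36 higher and 64 lower of 344 tested. The part of the cut in the falls on chromosome 15 was not tested.

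**Figure D1:**
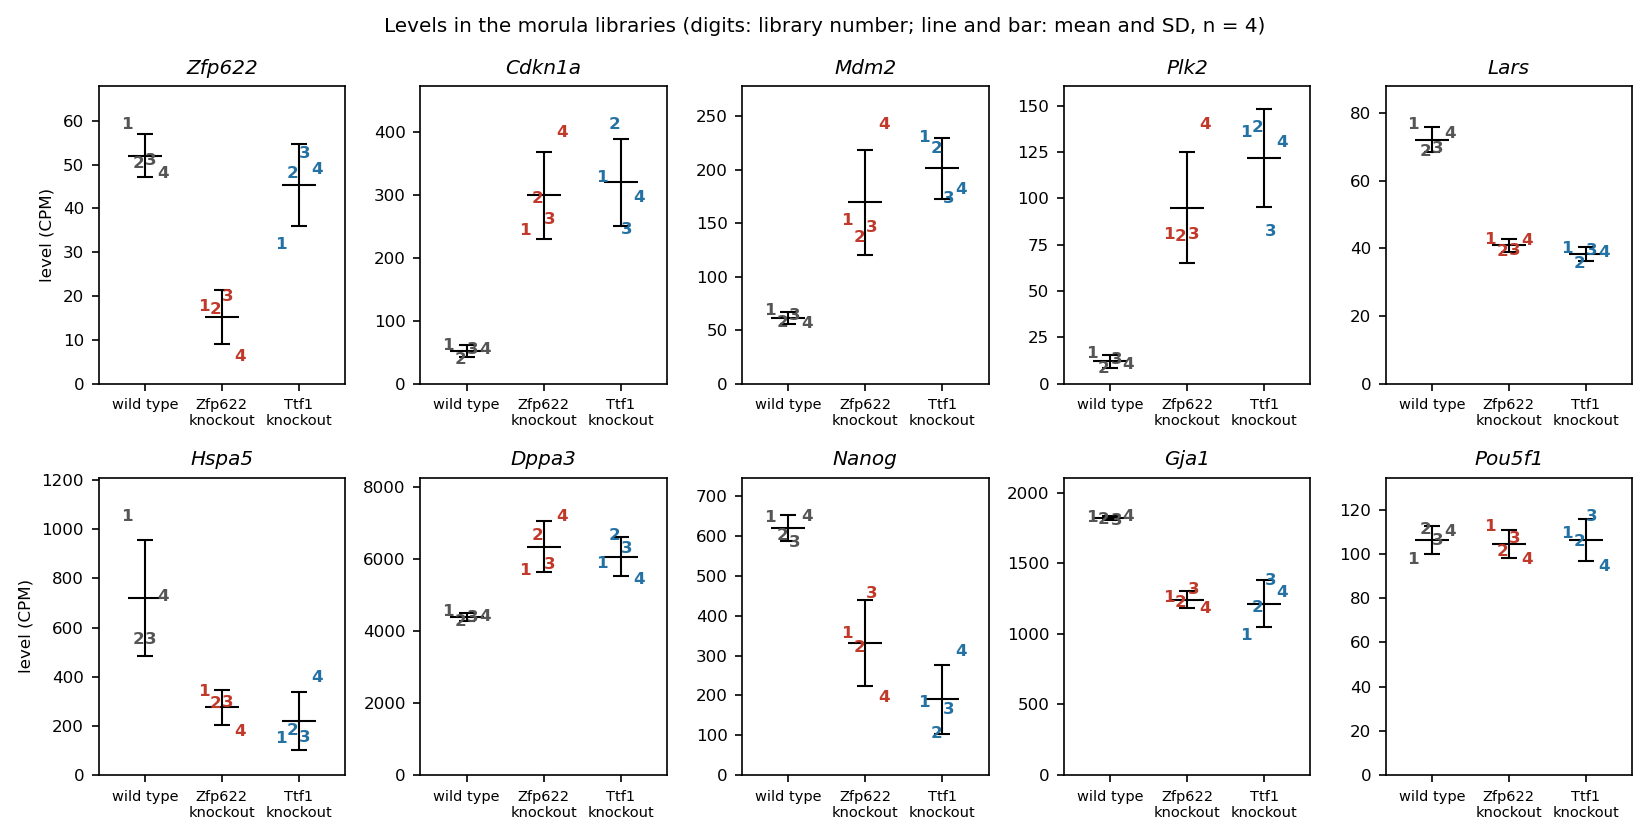
Levels in CPM (linear axes from 0) of 10 genes in the 12 morula libraries, with digits for the library number and the mean and SD of each group of 4. Zfp622 is low in the 4 Zfp622 knockout libraries and lowest in library 4, and within that genotype library 4 has the highest Cdkn1a, Mdm2, Plk2 and Dppa3 and the lowest Nanog.

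Zfp622 knockout libraries were shallower than every wild-type library, apart from knockout library 3, which was just above the lowest wild-type total. Total counts ran from 14363767 to 17807596 read pairs in wild type, from 12690369 to 14448490 in the Zfp622 knockout and from 14420604 to 15479299 in the Ttf1 knockout. On the first principal component, with 57.4% of the variance, wild-type libraries lay between -39.8 and -34.3, Zfp622 knockout libraries 1 to 3 between 9.68 and 10.6, and library 4 at 28.5. The wild-type and Zfp622 knockout libraries carry lane 2 in their alignment file names and the Ttf1 knockout libraries lane 1. Wild-type libraries 3 and 4 carry a second index number there. Of 10 markers fixed for the morula, none was at 0 in any wild-type or knockout library. Their wild-type levels ran from a mean of 6.97 CPM for Cdx2 to 2744 to 3706 CPM for Dppa5a. The markers were present but not unchanged. In the Zfp622 knockout 4 of the 10 fell and 6 did not pass, beside 13.5% of all genes lower. Their median log2 fold change was -0.45, beside 0.03 over all genes tested. Relative to wild type, the marker medians in knockout libraries 1 to 4 were -0.25, -0.47, -0.26 and -0.82. P-values measure the spread between these pools of embryos.

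Morulae in which Zfp622 had been targeted differed from wild type at many genes, with large changes mostly upward. Of 14865 genes tested, 4321 (29.1%) passed an adjusted p of 0.05 in edgeR, 2313 higher (15.6%) and 2008 lower (13.5%). Levels of the wild-type and knockout libraries did not overlap for 4584 genes (30.8%), and of the genes past the threshold 3681 (85.2%) were among them. Larger changes were mostly rises, with 1103 genes at least 2-fold higher and 175 at least 2-fold lower, so that 86.3% of the changes of this size were upward. Without the wild-type libraries that carry a second index number 2043 genes passed, and without knockout library 4 the count was 3320. In these pools, fewer cells of a type and less RNA per cell cannot be told apart.

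Rises and falls sat at different levels of expression. Among 2047 genes with a mean of up to 1 CPM, 335 rose (16.4%) and 25 fell (1.22%), beside 15.6% and 13.5% of all genes. Their median log2 fold change was 0.41. The expression filter kept a gene with enough counts in a single group, and knockouts made up most of the libraries filtered. Genes near 0 in wild type could thus enter through the knockouts alone, and the part of the filter in this shift was not tested. Among 1877 genes above 100 CPM, 259 rose and 561 fell, with a median of -0.08. The change took 20 genes from under 1 CPM to at least 5 CPM. Long noncoding RNAs moved mostly upward, with a median of 0.38. Of 1091 tested 246 were higher and 28 lower, beside 15.6% of all genes higher and 13.5% lower. Protein-coding genes were even, with 1864 higher and 1884 lower of 11931. Whether the biotypes differ at equal levels of expression was not tested.

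**Figure D2:**
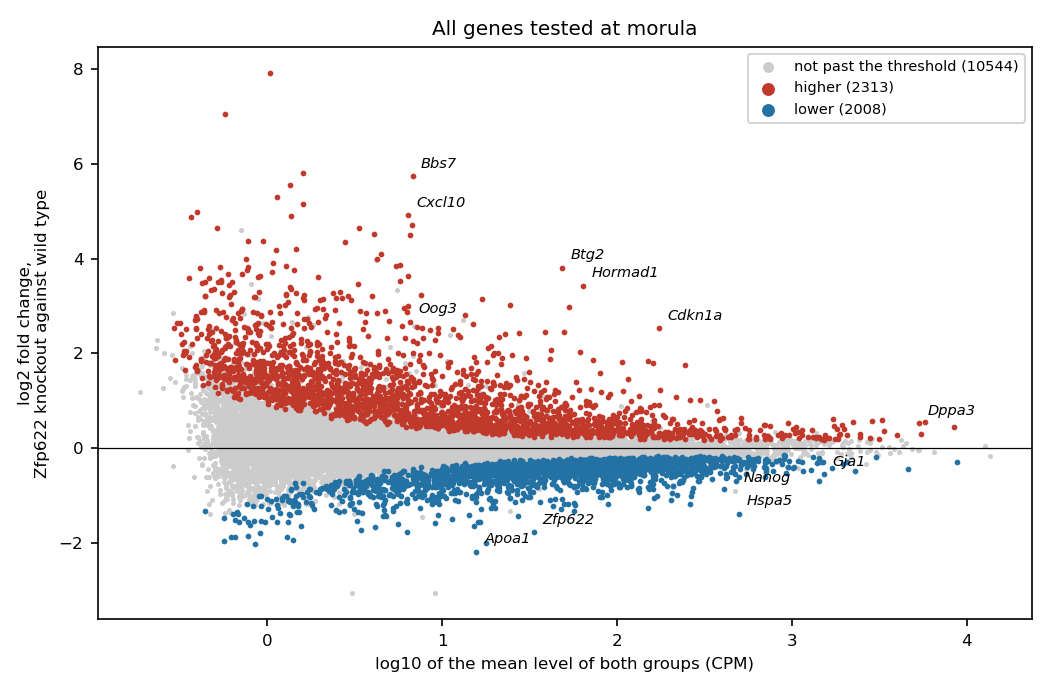
Log2 fold change of Zfp622 knockout against wild type (y axis) by log10 of the mean level in CPM (x axis) for the 14865 genes tested, with the 2313 genes called higher in red, the 2008 called lower in blue and the rest in grey. The largest rises are at low and middle levels, and the blue points widen below 0 towards higher levels.

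Factors that act beside Zfp622 in the late maturation of the large subunit passed the test about as often as all genes. Of 21 tested, 1 rose and 6 fell, Zfp622 included, which makes 33.3% called beside 29.1% of all genes, with a median log2 fold change of -0.05. Eif6, which keeps the subunits apart until maturation is done, was at 316, 361, 368 and 374 CPM in wild type and 334, 396, 364 and 331 CPM in the knockout, and the groups overlapped (log2 fold change 0.01 ± 0.07, adjusted p = 0.959). The export adaptor Nmd3, its release factor Lsg1 and the pair Sbds and Efl1, which evict Eif6, did not pass either, with log2 fold changes of -0.07, 0.00, -0.04 and -0.12 and adjusted p-values of 0.455, 0.987, 0.72 and 0.509. The one rise was Pa2g4, the relative of the factor that Rei1 releases in yeast. It stood at 1165, 1230.4, 1244 and 1241 CPM in wild type and 1356, 1528, 1414 and 1422 CPM in the knockout, without overlap (log2 fold change 0.23 ± 0.05, adjusted p = 0.00507). Mdn1, the giant ATPase that strips assembly factors in the nucleus, fell from 108.21 to 86.6 CPM (adjusted p = 0.00581), and the GTPase Gnl2 fell from 171 to 140.4 CPM (adjusted p = 0.0061).

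Proteins reported to bind Zfp622 moved in both directions. Melk, a kinase of dividing cells, stood at 113, 100.2, 103.44 and 116 CPM in wild type and 81.2, 81.8, 79.2 and 77.3 CPM in the knockout (log2 fold change -0.44 ± 0.08, adjusted p = 0.000622). Its levels in the knockout lay within a few CPM of each other and below every wild-type library. Mybl2, the B-Myb transcription factor of proliferating cells, fell from 115 to 82.5 CPM (adjusted p = 0.00161). Map3k5, a kinase of the stress pathway to JNK and p38, rose from 18.3 to 28.4 CPM (adjusted p = 0.00291). The ubiquitin ligase Huwe1 was at 174 and 148 CPM and did not pass (adjusted p = 0.171), but passed without wild-type library 2 (adjusted p = 0.0471).

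Many assembly factors of both subunits were lower. In the nucleolar stages of large subunit assembly 22 of 53 tested genes fell and 3 rose, and in small subunit assembly 29 of 65 fell and 4 rose, beside 13.5% of all genes lower and 15.6% higher. Without wild-type library 1 or knockout library 2 the small subunit list held 2 rises. The medians were -0.18 and -0.21. Every knockout library shared the shift, with list medians relative to wild type from -0.15 to -0.20 and from -0.16 to -0.25. Cebpz, an early large subunit factor, had 75.3, 70.95, 72.96 and 73.5 CPM in wild type and 43.9, 41.8, 41.6 and 38.0 CPM in the knockout (log2 fold change -0.82 ± 0.08, adjusted p = 1.26e-05). Wild-type libraries were all above 70 CPM and knockout libraries all below 45 CPM. Heatr3, which escorts the ribosomal protein Rpl5, fell from 125 to 88.8 CPM (adjusted p = 0.000163), the helicase Ddx18 fell from 285 to 208 CPM (adjusted p = 0.000273) and Tex10 fell from 137 to 98.5 CPM (adjusted p = 0.000578). On the small subunit, Nat10, which acetylates ribosomal RNA, had 43.4, 39.9, 43.7 and 41.8 CPM and 23.3, 26.6, 26.7 and 22.5 CPM in the knockout (log2 fold change -0.77 ± 0.11, adjusted p = 0.000117). Nob1, the nuclease that makes the final cut of 18S ribosomal RNA, fell from 155 to 109.11 CPM (adjusted p = 0.000119), Wdr3 fell from 194 to 129 CPM (adjusted p = 0.000126) and Dnttip2 fell from 361 to 251 CPM (adjusted p = 7.74e-05).

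RNA polymerase I genes and the hosts of small nucleolar RNAs gave no common direction. Of 28 polymerase I genes 5 fell and 4 rose, beside 13.5% of all genes lower and 15.6% higher, and leaving out wild-type library 2, 3 or 4 or knockout library 2 or 4 left 1 or 2 of the rises. Polr1b, the second largest subunit, fell from 123 to 82.9 CPM (adjusted p = 0.000177), and Polr1c and Twistnb fell from 221 to 177 CPM (adjusted p = 0.0095) and from 192 to 154 CPM (adjusted p = 0.00493). Polr2l, a small subunit shared by the 3 nuclear polymerases, rose from 231 to 311 CPM (adjusted p = 0.000342). Among 16 small nucleolar RNA hosts, Snhg15 and Gas5 rose, from 50.2 to 83.2 CPM (adjusted p = 0.000334) and from 360.2 to 467 CPM (adjusted p = 0.00275), and Snhg11 fell from 43.1 to 21.0 CPM (adjusted p = 0.00159).

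Ribosomal protein transcripts tended upward by small amounts. Of 85 tested, 26 rose, 1 fell and 58 did not pass, beside 15.6% of all genes higher and 13.5% lower, with a median log2 fold change of 0.14. The count of rises was 13 without knockout library 4 and 13, 15, 15 and 17 without wild-type libraries 2, 3, 4 and 1. Rpl7a stood at 786, 764, 767 and 789.7 CPM in wild type and 980.1, 929, 924 and 1012 CPM in the knockout (log2 fold change 0.31 ± 0.06, adjusted p = 0.00139). The one fall was Rpl3, at 2112, 2131, 2248 and 2249 CPM in wild type and 1826, 1722, 1736 and 1663 CPM in the knockout (log2 fold change -0.33 ± 0.05, adjusted p = 0.000301). Its libraries did not overlap, and the lowest knockout value was again in library 4. Of 77 mitochondrial ribosomal proteins 6 rose, 10 fell and 61 did not pass. The list held 3 rises without knockout library 1 and 6 falls without wild-type library 2 or knockout library 3. Ribosomal protein genes have many near-identical pseudogenes, and reads placed at several sites were not counted, so their levels are uncertain.

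Most of the enzymes that load amino acids onto tRNAs were lower. Of 23 tested, 16 fell and 7 did not pass, beside 13.5% of all genes lower, with a median log2 fold change of -0.34. Leaving out any 1 library left 16 or 17 falls. Lars, for leucine, had 76.6, 68.8, 69.5 and 73.96 CPM in wild type and 42.7, 39.1, 39.3 and 42.4 CPM in the knockout (log2 fold change -0.82 ± 0.08, adjusted p = 1.2e-05). Sars, for serine, had 144, 139, 149 and 145 CPM and 98.0, 83.4, 99.2 and 79.8 CPM (log2 fold change -0.68 ± 0.08, adjusted p = 3.13e-05). Neither pair of groups came close to overlapping. Eprs, which loads glutamate and proline, fell from 248 to 168 CPM (adjusted p = 6.3e-05), and Nars, for asparagine, fell from 327 to 235 CPM (adjusted p = 0.000185). Of 46 translation factors 14 fell and 2 rose, with a median of -0.15. Eif3d, the subunit of initiation factor 3 that can bind the cap, fell from 266 to 184 CPM (adjusted p = 0.000153), the release factor Etf1 fell from 695 to 530.4 CPM (adjusted p = 0.00019) and the recycling ATPase Abce1 fell from 578 to 450.3 CPM (adjusted p = 0.00109), while the start codon factor Eif1 rose from 571 to 743 CPM (adjusted p = 0.00234).

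Most tested targets of p53 rose. The transcription factor p53 induces genes that stop the cell cycle, kill the cell or repair it, and also its own inhibitor Mdm2. Of 21 targets of arrest and feedback 16 rose and 2 fell, of 22 targets of cell death 15 rose and 1 fell, and of 30 targets of repair and metabolism 17 rose and 2 fell, beside 15.6% of all genes higher and 13.5% lower. The medians were 1.05, 0.94 and 0.82. Trp53 itself, counted in the first list, rose by 0.30 on the log2 scale (adjusted p = 0.00985).

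Cdkn1a, the p21 inhibitor of cyclin-dependent kinases, stood at 60.3, 38.3, 53.7 and 53.7 CPM in wild type and 242, 294, 259.9 and 398 CPM in the knockout (log2 fold change 2.54 ± 0.21, adjusted p = 2.61e-05). The lowest knockout library was 4 times as high as the highest wild-type one, and library 4 was the highest of all. Plk2, a polo-like kinase, had 16.4, 7.95, 13.2 and 10.5 CPM and 80.4, 79.1, 80.3 and 139.6 CPM (log2 fold change 2.98 ± 0.28, adjusted p = 6.19e-05). Mdm2 had 68.6, 56.6, 63.7 and 56.2 CPM and 153, 136, 146 and 242 CPM (log2 fold change 1.47 ± 0.17, adjusted p = 9.45e-05). For both genes knockout libraries 1 to 3 lay close together and library 4 stood apart above them. The cyclin Ccng1 rose from 72.4 to 251 CPM (adjusted p = 0.000128) and the reductase Dcxr from 9.82 to 33.4 CPM (adjusted p = 1.78e-05). Btg2, an antiproliferative factor, had 8.10, 6.72, 7.69 and 3.44 CPM and 90.2, 47.3, 67.5 and 159 CPM (log2 fold change 3.81 ± 0.45, adjusted p = 0.00029). The ribosomal protein paralogue Rps27l, also induced by p53, rose from 776 to 1122 CPM (adjusted p = 0.00253).

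Among death genes, Eda2r, a receptor of the tumour necrosis factor family, had 19.6, 13.8, 16.5 and 14.7 CPM in wild type and 69.4, 76.9, 54.4 and 69.7 CPM in the knockout (log2 fold change 2.06 ± 0.20, adjusted p = 2.61e-05). Here library 4 did not stand out. Zmat3, an RNA-binding tumour suppressor, rose from 6.86 to 24.4 CPM (adjusted p = 3.84e-05), and Trp53inp1, a partner of p53 in cell death, from 47.8 to 168 CPM (adjusted p = 8.36e-05). Tnfrsf10b, the mouse TRAIL receptor, rose from 20.3 to 50.9 CPM (adjusted p = 4.72e-05) and the apoptosis factor Siva1 from 96.0 to 163 CPM (adjusted p = 5.05e-05). Bbc3, the death inducer PUMA, had 0.409, 0.617, 0.679 and 0.188 CPM and 3.29, 2.86, 2.29 and 2.77 CPM (log2 fold change 2.54 ± 0.34, adjusted p = 9.04e-05), a low level in both groups. Of the targets of repair and metabolism, Phlda3, an inhibitor of Akt, rose from 4.17 to 25.9 CPM (adjusted p = 6.64e-05), Ddit4 and Sesn2, which restrain mTORC1, rose from 3.17 to 11.5 CPM (adjusted p = 1.2e-05) and from 7.10 to 18.2 CPM (adjusted p = 4.3e-05), and the exocyst subunit Exoc4 rose from 28.5 to 64.3 CPM (adjusted p = 2.02e-05).

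**Figure D3:**
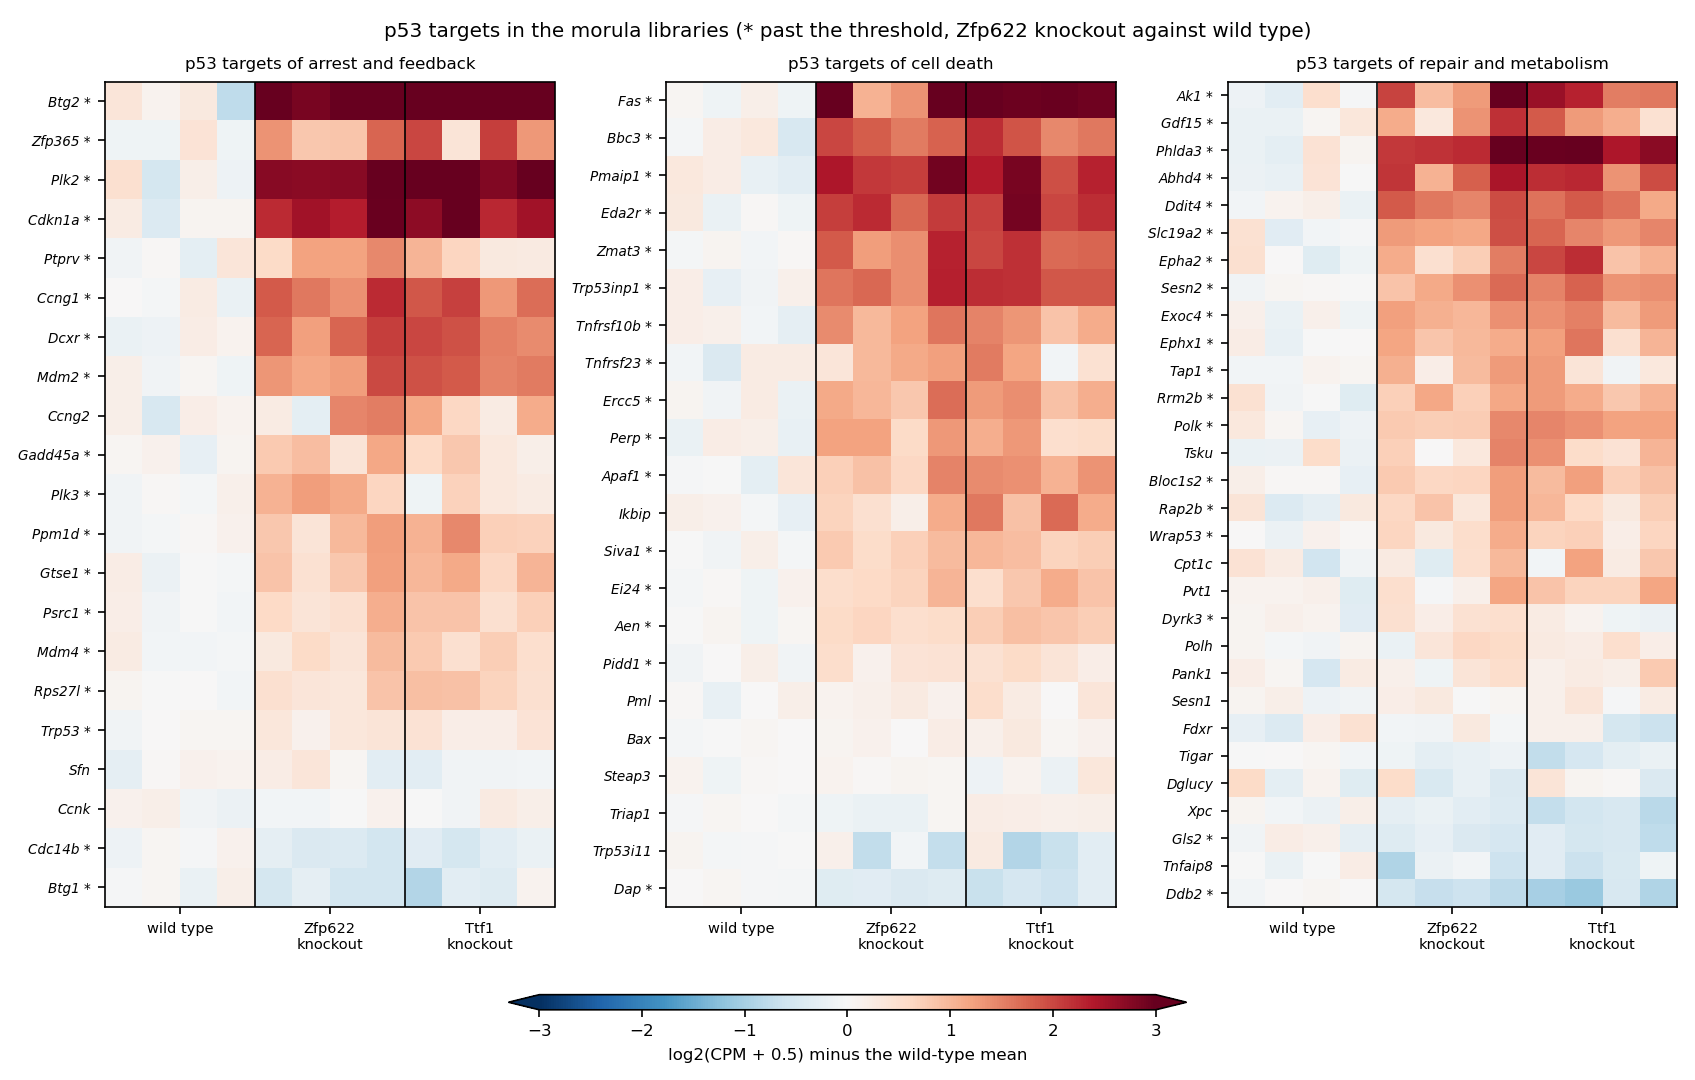
Heat maps of log2(CPM + 0.5) minus the wild-type mean for 73 tested p53 targets in the 12 morula libraries (columns, in order of library number), ordered by fold change, with stars for genes past the threshold. Most rows are red in the 4 Zfp622 knockout columns, deepest in library 4, and the Ttf1 knockout columns show the values set against the same 4 wild-type libraries.

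Promoters of the p53 targets that rose were searched for a pair of cores of the p53 binding motif, each CATG, CAAG or CTTG, with 6 bases between them, which reads the same on both strands. In RefSeq windows on GRCm38.p6 from 250 bases before to 50 after each start, 9 of 41 targets that rose and had a window held such a pair (22.0%). Trp53 and Wrap53, 2 of the 9, share 1 site in the promoter between them, on opposite strands, and are counted separately. The share was 16.4% over the 61 targets tested, 3.9% over 9928 genes tested at morula and 5.5% over all 27025 genes with a window. Among all genes that rose the share was 5.2% and among those that fell 3.2%. The 4 sites with the smallest adjusted p of their genes are shown, since they hold the letters counted here, on the plus strand with the cores in capitals.
Cdkn1a, chr17:29090913-29090962: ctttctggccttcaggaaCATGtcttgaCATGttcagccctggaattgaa
Plk2, chr13:110395023-110395072: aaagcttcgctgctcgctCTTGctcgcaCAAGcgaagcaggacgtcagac
Bbc3, chr7:16309471-16309520: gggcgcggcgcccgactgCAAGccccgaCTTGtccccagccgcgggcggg
Aen, chr7:78895922-78895971: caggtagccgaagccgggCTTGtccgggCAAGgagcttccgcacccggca
Cdkn1a was the 1 p53 target that rose with CATG at both cores. Aen, a nuclease of apoptosis, had 30.0, 31.5, 27.4 and 31.3 CPM in wild type and 45.2, 47.4, 42.7 and 44.3 CPM in the knockout (log2 fold change 0.58 ± 0.08, adjusted p = 0.000148). A match of letters is a description of the window and does not show binding.

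Genes of the apoptosis machinery changed about as often as all genes. Of 22 genes of the BCL2 family and caspases, 4 rose and 3 fell, beside 15.6% of all genes higher and 13.5% lower, and leaving out wild-type library 1, 2, 3 or 4 or knockout library 3 left 0 to 2 of the rises. Casp6, an effector caspase, had 207, 183, 179.5 and 204 CPM in wild type and 111, 109.46, 127 and 92.6 CPM in the knockout (log2 fold change -0.81 ± 0.12, adjusted p = 0.000149), and the initiator Casp9 fell from 5.02 to 2.55 CPM (adjusted p = 0.00906). The inhibitor of apoptosis Birc3 fell from 38.0 to 25.2 CPM (adjusted p = 0.00253). The survival factor Mcl1 rose from 127 to 149 CPM (adjusted p = 0.0143) but missed the threshold when wild-type library 1, 3 or 4 or knockout library 4 was left out (adjusted p from 0.0533 to 0.0689).

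Stress genes moved in both directions. Of 30 integrated stress response genes 9 rose, 6 fell and 15 did not pass, beside 15.6% of all genes higher and 13.5% lower. Eif2ak1, the haem-regulated kinase of eIF2, rose from 15.7 to 27.3 CPM (adjusted p = 0.000176) and the amino acid transporter Slc7a5 from 3.64 to 6.89 CPM (adjusted p = 0.00159), while Mthfd2, of mitochondrial folate metabolism, fell from 39.2 to 23.7 CPM (adjusted p = 0.000179). Of 31 genes of endoplasmic reticulum stress and folding 13 fell, 1 rose and 17 did not pass, and the falls numbered 6, 8 and 7 without wild-type library 1, knockout library 2 and knockout library 4. Hspa5, the main chaperone of that compartment, had 1052, 549, 550.0 and 725 CPM in wild type and 339, 291, 294 and 175 CPM in the knockout (log2 fold change -1.39 ± 0.38, adjusted p = 0.0214). Wild-type library 1 was far above the others, and the adjusted p was 0.0527 without it and 0.0601 without knockout library 4. Derl1, of protein export for degradation, fell from 62.1 to 37.8 CPM (adjusted p = 4.16e-05), and the folding factors Dnajb11, P4hb and Manf fell from 146 to 107.89 CPM (adjusted p = 0.000947), from 267 to 197 CPM (adjusted p = 0.00131) and from 185 to 129.9 CPM (adjusted p = 0.00281).

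Several cytosolic and mitochondrial chaperones fell, and an inducible Hsp70 rose. Of 37 tested heat shock genes 16 fell, 4 rose and 17 did not pass, beside 13.5% of all genes lower and 15.6% higher, with 2 rises left without wild-type library 4 or knockout library 3 or 4. Cct5, a subunit of the chaperonin that folds actin and tubulin, had 1107, 1092, 1126 and 1060.3 CPM in wild type and 779, 723, 816 and 735 CPM in the knockout (log2 fold change -0.52 ± 0.06, adjusted p = 2.61e-05). Dnaja2 fell from 399.6 to 282 CPM (adjusted p = 4.3e-05) and the mitochondrial Hspe1 from 284 to 169 CPM (adjusted p = 0.000111). Hspa1b, the inducible Hsp70, had 0.953, 0.891, 2.21 and 1.25 CPM and 8.46, 6.56, 9.95 and 9.64 CPM (log2 fold change 2.68 ± 0.32, adjusted p = 4.33e-05), and reads may be shared with its near-identical copy Hspa1a. Of 35 interferon response genes 18 were abundant enough to test, of which 7 rose, 2 fell and 9 did not pass. Those nearly absent from wild type could enter through the knockouts alone. The rises included the membrane proteins Ifitm3, from 0.409 to 2.56 CPM (adjusted p = 7.23e-05), and Ifitm1, from 1.58 to 3.66 CPM (adjusted p = 0.000954), and Ifi27, from 0.922 to 2.74 CPM (adjusted p = 0.00163).

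Nearly as many genes of cell division fell as did not. Of 60 genes of mitosis 29 fell, 3 rose and 28 did not pass, where 13.5% of all genes fell and 15.6% rose, with a median log2 fold change of -0.28. Anln, the anillin of the contractile ring, had 117, 116, 128 and 115 CPM in wild type and 80.4, 79.3, 85.0 and 69.5 CPM in the knockout (log2 fold change -0.60 ± 0.08, adjusted p = 0.000114). Birc5, the survivin of the chromosomal passenger complex, fell from 442 to 339.8 CPM (adjusted p = 0.000284), and Tpx2, which builds the spindle with Aurora A, fell from 224 to 165 CPM (adjusted p = 0.000392). Spc25 went the other way. This kinetochore subunit stood at 60.7, 55.3, 61.5 and 52.0 CPM in wild type and 114, 117, 119 and 156 CPM in the knockout (log2 fold change 1.14 ± 0.14, adjusted p = 9.77e-05), with library 4 again the highest.

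Among genes of DNA replication and repair, falls outnumbered rises. Of 50 replication genes 14 fell and 4 rose, and of 43 genes of break repair 14 fell and 2 rose, against 13.5% of all genes lower and 15.6% higher. The rest, 32 and 27 genes, did not pass. Mcm10, an origin-firing factor, had 157, 156, 148 and 150.1 CPM in wild type and 101, 89.9, 98.1 and 67.7 CPM in the knockout (log2 fold change -0.78 ± 0.12, adjusted p = 0.0003). The helicase subunit Mcm4 fell from 164 to 118 CPM (adjusted p = 0.00152), the licensing inhibitor Gmnn from 328 to 259.8 CPM (adjusted p = 0.000912) and the ligase Lig1 from 42.1 to 30.0 CPM (adjusted p = 0.00207). Both subunits of the Ku end-binding dimer fell, Xrcc5 from 19.96 to 9.79 CPM (adjusted p = 0.000253) and Xrcc6 from 33.8 to 20.03 CPM (adjusted p = 0.000198), as did the ligase Lig3, from 84.3 to 47.0 CPM (adjusted p = 0.000113), while Rad51d, a recombination factor, rose from 11.5 to 24.2 CPM (adjusted p = 0.000241). Among 31 genes of G1 control 8 rose, 3 fell and 20 did not pass. Ccnd1, the D-type cyclin, had 3.95, 5.96, 3.17 and 2.88 CPM and 14.6, 17.2, 15.2 and 14.8 CPM (log2 fold change 1.96 ± 0.23, adjusted p = 3.54e-05). The E-type cyclins moved apart, Ccne2 rising from 35.5 to 75.01 CPM (adjusted p = 0.000502) and Ccne1 falling from 427 to 272 CPM (adjusted p = 0.00411). Rb1, the retinoblastoma gene, rose from 0.545 to 5.23 CPM (adjusted p = 0.000219), and Cdkn1c, an imprinted kinase inhibitor, from 0.845 to 3.13 CPM (adjusted p = 0.00418).

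Mitochondrially encoded RNA was higher in the knockout. Mitochondrial genes took 2.24% to 2.45% of counts in wild type and 2.79% to 3.69% in the knockout, without overlap. Of 15 tested, 9 rose and 6 did not pass, beside 15.6% of all genes higher, and 5 rose without wild-type library 2 or 3. mt-Cytb, of complex III, had 4639, 4572, 5076 and 4511 CPM in wild type and 7118, 6773, 5902 and 7889.7 CPM in the knockout (log2 fold change 0.56 ± 0.09, adjusted p = 0.000314), and mt-Nd2, of complex I, rose from 1809 to 2660.0 CPM (adjusted p = 0.000241). Of 90 nuclear genes of oxidative phosphorylation 15 rose and 12 fell, close to the background. Atp5a1, of ATP synthase, fell from 831 to 588 CPM (adjusted p = 3.54e-05) and Ndufs1, of complex I, from 171 to 114 CPM (adjusted p = 0.000119), while Ndufb6 rose from 81.6 to 140.2 CPM (adjusted p = 0.000138). Cox6b2, a testis form of a cytochrome oxidase subunit, had 5.79, 6.79, 7.80 and 7.33 CPM and 26.6, 35.2, 26.6 and 53.04 CPM (log2 fold change 2.35 ± 0.28, adjusted p = 0.000154). At the late 2-cell stage it was more abundant, at 244 CPM in wild type and 229 CPM in the knockout.

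In glycolysis and the lysosome falls outnumbered rises, while sterol synthesis genes changed about as often as all genes, of which 13.5% fell and 15.6% rose. Of 22 genes of glycolysis and glucose uptake 9 fell and 3 rose, with 4 or 5 falls left without wild-type library 3 or 4 or knockout library 3 or 4. The glucose transporter Slc2a1 fell from 47.0 to 31.7 CPM (adjusted p = 0.00269) and Pfkfb2, which sets the signal for phosphofructokinase, from 7.73 to 4.24 CPM (adjusted p = 0.00283), while Ldhb, a lactate dehydrogenase, rose from 2.16 to 5.61 CPM (adjusted p = 0.000113). Of 38 lysosomal genes 17 fell, 3 rose and 18 did not pass. Hexa, a subunit of hexosaminidase, had 111, 119.7, 136 and 131 CPM in wild type and 61.8, 47.1, 61.0 and 48.5 CPM in the knockout (log2 fold change -1.19 ± 0.12, adjusted p = 1.2e-05). Asah1, the acid ceramidase, fell from 152 to 87.7 CPM (adjusted p = 3.84e-05) and Grn, which encodes progranulin, from 594 to 369 CPM (adjusted p = 0.000502), while the protease Ctsb rose from 163 to 249.8 CPM (adjusted p = 0.000505). Of 24 sterol genes 6 rose and 1 fell, 29.2% beside 29.1% of all genes, with rises of Sc5d from 11.3 to 20.1 CPM (adjusted p = 0.000855), Idi1 from 28.8 to 50.6 CPM (adjusted p = 0.00139), Cyp51 from 15.7 to 27.7 CPM (adjusted p = 0.00154) and Fdft1 from 219 to 331 CPM (adjusted p = 0.0023), enzymes along the path to cholesterol.

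Antioxidant genes changed about as often as all genes, of which 15.6% rose and 13.5% fell, and proteasome genes included more falls. Of 40 proteasome genes 14 fell, 1 rose and 25 did not pass, and the falls included Psmd2, from 391 to 282 CPM (adjusted p = 0.000185), and Psmd1, from 475 to 365 CPM (adjusted p = 0.000785), of the regulatory particle. The rise was Psmb10, a subunit of the immunoproteasome, from 22.5 to 36.5 CPM (adjusted p = 0.000965). Of 32 antioxidant genes 5 rose and 5 fell, and 3 and 2 rose without wild-type library 1 and knockout library 4. Gpx1, a glutathione peroxidase, rose from 317 to 493 CPM (adjusted p = 3.54e-05), Txnip, which binds thioredoxin, from 0.537 to 3.81 CPM (adjusted p = 0.000266), and the peroxiredoxin Prdx2 fell from 107.11 to 56.6 CPM (adjusted p = 0.00114).

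**Figure D4:**
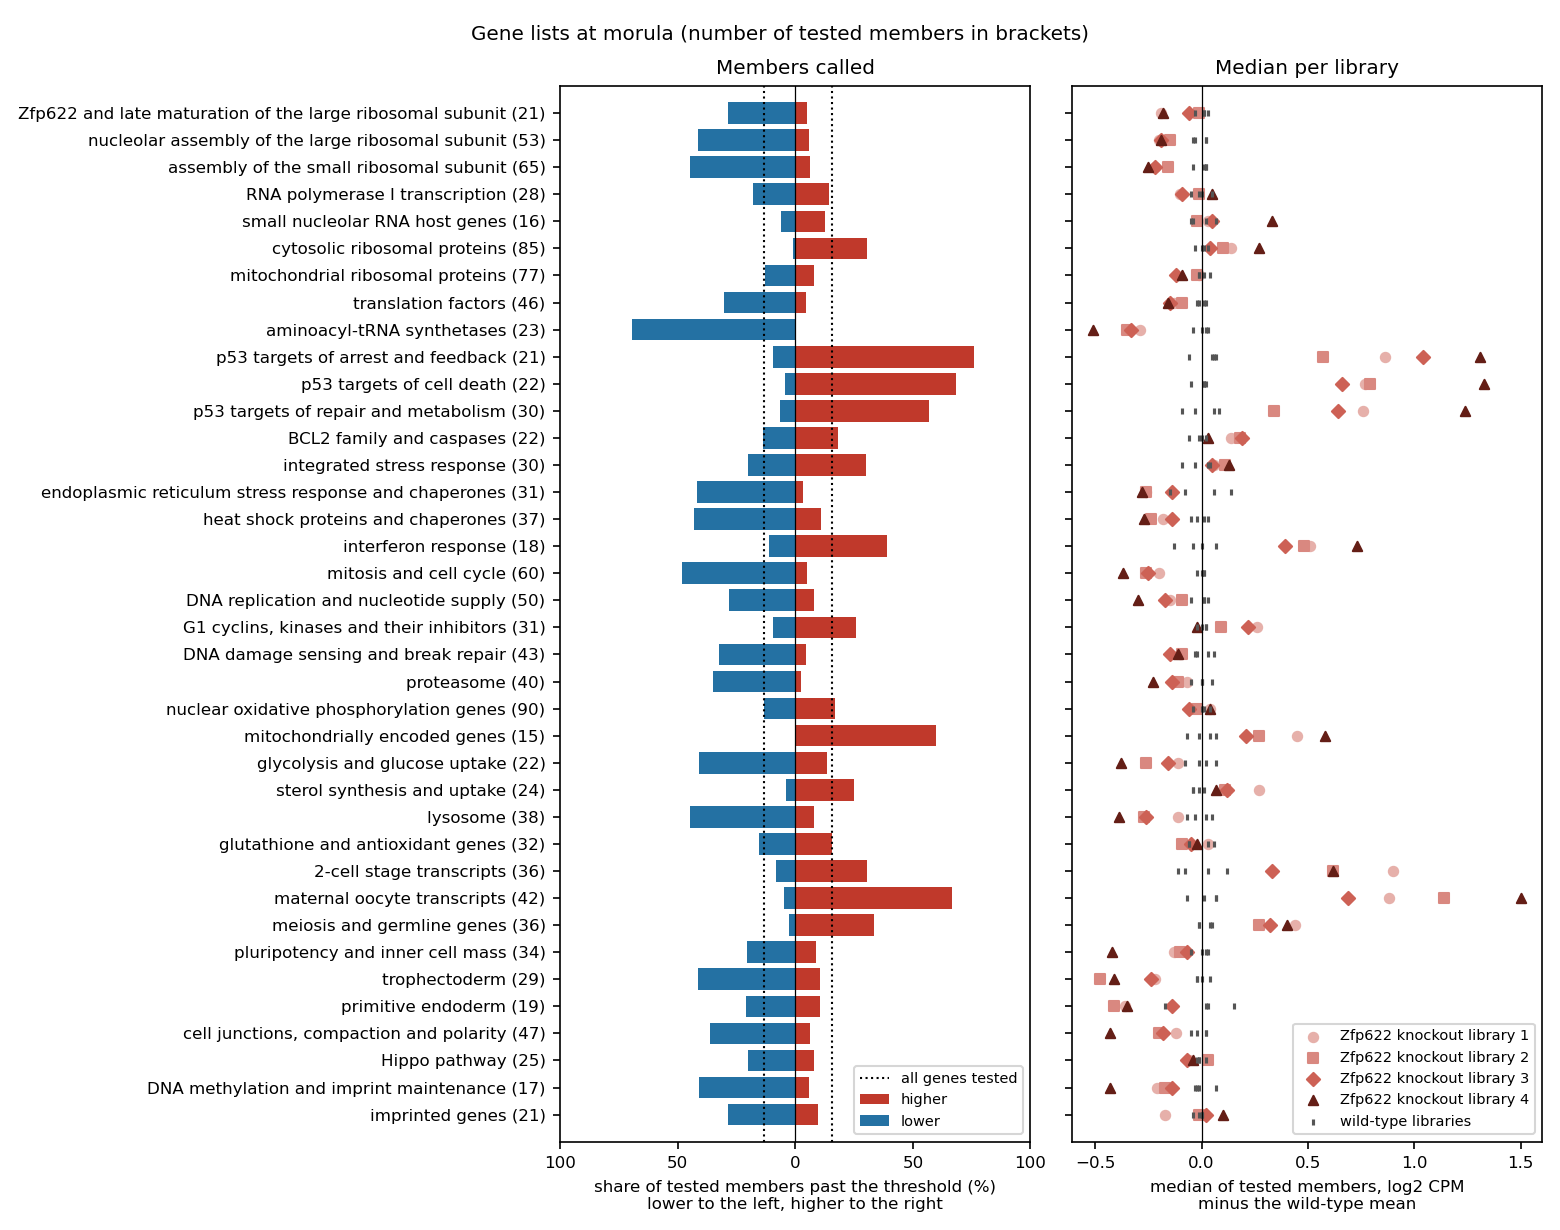
Left, the share of tested members of 38 gene lists past the threshold (blue, lower; red, higher; dotted lines, all genes tested); right, the median log2 CPM of the members minus the wild-type mean in each wild-type (ticks) and Zfp622 knockout library (symbols). The p53 lists of arrest and death and the oocyte list reach furthest to the right and tRNA synthetases furthest to the left among shares, and the triangles of knockout library 4 lie outermost in many lists.

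Most tested transcripts of the oocyte were higher in knockout morulae. Such RNAs are made before ovulation and mostly cleared in the early cleavages. Of 59 maternal transcripts 42 were abundant enough to test. Among these 28 rose, 2 fell and 12 did not pass, where 15.6% of all genes rose and 13.5% fell, with a median log2 fold change of 1.21. Members nearly absent from wild type could enter the test through the knockouts alone, and the part of this in the rises was not tested. The medians per knockout library, relative to wild type, were 0.88, 1.14, 0.69 and 1.50. Oog3, of a family of oogenesis genes, stood at 1.43, 1.78, 2.09 and 1.82 CPM in wild type and 10.3, 13.1, 8.74 and 13.4 CPM in the knockout (log2 fold change 2.67 ± 0.20, adjusted p = 1.39e-06). Omt2b had 2.72, 2.13, 2.94 and 1.88 CPM and 6.96, 10.3, 8.87 and 12.02 CPM (log2 fold change 1.97 ± 0.21, adjusted p = 1.7e-05), and Oosp1, an oocyte secreted protein, 0.953, 1.10, 1.02 and 1.13 CPM and 3.14, 4.01, 6.65 and 10.43 CPM (log2 fold change 2.52 ± 0.37, adjusted p = 0.000207). Most of these genes were rare in both groups. Dppa3, which protects the maternal genome from demethylation, was abundant, at 4533, 4251, 4373 and 4401 CPM and 5688, 6637, 5828 and 7178 CPM (log2 fold change 0.53 ± 0.08, adjusted p = 0.000138). Nlrp4c, of an oocyte gene family, fell from 39.7 to 14.7 CPM (adjusted p = 0.0232), with adjusted p-values of 0.0566 and 0.0601 without wild-type library 2 and knockout library 2. Not every member shows such clearance in wild type. At the late 2-cell stage wild type had 3974 CPM of Dppa3 and 9.61 CPM of Nlrp4c, neither above the morula level. Oog3, Omt2b and Oosp1 stood far higher at that stage, at 2585, 4450 and 1170 CPM. Oog, Omt2 and Nlrp genes come in families of close copies, between which reads may be divided.

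Among transcripts of the 2-cell stage and of germ cells, rises outnumbered falls. Of 36 genes of the 2-cell stage 11 rose and 3 fell, beside 15.6% of all genes higher and 13.5% lower, with a median of 0.84 but medians per knockout library from 0.33 to 0.90. Here and among the germline genes, members nearly absent from wild type could enter the test through the knockouts alone, which was not tested. Arg2, an arginase, rose from 6.88 to 18.4 CPM (adjusted p = 0.000113), the nuclear body protein Sp110 from 165 to 252 CPM (adjusted p = 0.000174) and Tdpoz4 from 2.98 to 10.2 CPM (adjusted p = 0.000176). In wild type at the late 2-cell stage these were at 189, 170 and 138 CPM, so Sp110 was about as high there as at morula. Of 36 meiosis and germline genes 12 rose, 1 fell and 23 did not pass. Hormad1, a protein of meiotic chromosome axes, had 12.3, 5.28, 11.4 and 14.5 CPM in wild type and 102.96, 87.2, 96.9 and 183 CPM in the knockout (log2 fold change 3.43 ± 0.38, adjusted p = 0.000193). Tex15, needed for meiotic recombination and transposon silencing, had 1.29, 0.823, 1.24 and 2.07 CPM and 10.2, 11.1, 6.79 and 14.7 CPM (log2 fold change 2.96 ± 0.29, adjusted p = 1.26e-05). Slc25a31, the ADP/ATP carrier of sperm, rose from 7.87 to 31.8 CPM (adjusted p = 0.000736) and Asz1, of the piRNA pathway, from 15.2 to 25.6 CPM (adjusted p = 0.00224).

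Genes were also grouped by stage, from the Ttf1 knockout libraries. These libraries are not among those compared, but the morula ones share the fit and the filter. The grouping is not independent of changes that both knockouts share, and only 34 of 14865 genes passed between the knockouts at morula in edgeR. In the Ttf1 knockout libraries 4523 genes were at least 4-fold lower at morula than at the late 2-cell stage, and 1603 were tested. Of these 342 rose and 79 fell in the Zfp622 knockout, with a median of 0.29, beside 15.6% of all genes higher and 13.5% lower. Genes nearly absent from wild type enter the test only through the knockout libraries, and the part of this in the rises was not tested. Genes at least 4-fold higher at morula numbered 3393 among those tested, with 577 higher, 501 lower and a median of 0.03, beside 0.03 over all genes. The 31.8% called among them was close to the 29.1% of all genes.

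Pluripotency genes changed about as often as all genes. Of 34 tested 7 fell and 3 rose, which makes 29.4% called beside 29.1% of all genes, and the genes below are given one by one. Pou5f1, the core pluripotency factor, had 97.4, 111, 106.33 and 110.04 CPM in wild type and 112, 101, 106.88 and 97.7 CPM in the knockout and did not pass (log2 fold change -0.02 ± 0.08, adjusted p = 0.862). Nanog, which marks the later inner cell mass, had 645, 601, 584 and 649.6 CPM and 355, 319.7, 457 and 196 CPM. Every knockout library was below every wild-type library, but the spread among the knockout libraries was wide and the gene did not pass (log2 fold change -0.90 ± 0.32, adjusted p = 0.062). It passed without knockout library 3 (adjusted p = 0.0418), and over 18 alternatives it passed in 5. Tfcp2l1 had 553, 497, 471 and 537 CPM and 368, 306, 363 and 311 CPM (log2 fold change -0.61 ± 0.09, adjusted p = 0.000176). Zfp42, also called Rex1, fell from 286 to 175 CPM (adjusted p = 0.000784), and L1td1, an RNA-binding protein of stem cells, from 53.4 to 35.0 CPM (adjusted p = 0.00233). Sox2 was low, at 3.27, 1.78, 1.87 and 2.57 CPM and 0.748, 1.16, 0.403 and 0.711 CPM (log2 fold change -1.65 ± 0.43, adjusted p = 0.00907). Klf17, a zinc finger factor, rose from 17.9 to 43.2 CPM (adjusted p = 0.0046), with knockout library 1 at 19.9 CPM just above the wild-type maximum of 18.3 CPM.

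Trophectoderm genes included more falls than rises. Of 29 tested 12 fell, 3 rose and 14 did not pass, beside 13.5% of all genes lower and 15.6% higher, with a median of -0.41. Gata3, which drives this lineage, had 62.3, 67.2, 68.0 and 66.0 CPM in wild type and 46.7, 44.1, 50.3 and 35.7 CPM in the knockout (log2 fold change -0.57 ± 0.13, adjusted p = 0.00423). Cdx2, its best known factor, had 6.54, 7.13, 6.90 and 7.33 CPM and 5.31, 4.94, 5.85 and 3.64 CPM (log2 fold change -0.50 ± 0.18, adjusted p = 0.0434). The Cdx2 groups did not overlap, yet the call was lost on leaving out any wild-type library or knockout library 2 or 4 (adjusted p from 0.0501 to 0.118). The keratin Krt8 was at 148 and 98.96 CPM and did not pass (adjusted p = 0.0547), and passed without knockout library 1, 3 or 4 (adjusted p from 0.0181 to 0.0432). Ptges, a prostaglandin synthase, fell from 117 to 68.0 CPM (adjusted p = 0.000267), the epithelial factor Grhl2 from 71.8 to 49.8 CPM (adjusted p = 0.00116) and the endocytic receptor Lrp2 from 110.5 to 54.1 CPM (adjusted p = 0.000865). Of 19 primitive endoderm genes 4 fell and 2 rose, and the 31.6% called was near the 29.1% of all genes. Gata6, which defines that lineage, did not pass, at 87.9 and 83.8 CPM (adjusted p = 0.648), the adaptor Dab2 fell from 238 to 179 CPM (adjusted p = 0.00323), and Apoe, an apolipoprotein, rose from 12.9 to 47.7 CPM (adjusted p = 3.54e-05).

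Proteins of gap junctions, tight junctions and adhesion were among the junction genes that fell. Of 47 genes of junctions and polarity 17 fell, 3 rose and 27 did not pass, where 13.5% of all genes fell and 15.6% rose. Gja1, the connexin 43 of gap junctions, had 1827, 1812, 1801 and 1833 CPM in wild type and 1258, 1219, 1316 and 1179 CPM in the knockout (log2 fold change -0.55 ± 0.08, adjusted p = 0.000152). Its wild-type levels were tight and well clear of the knockout libraries. The tight junction protein Cldn7 had 238, 332, 316 and 289.9 CPM and 173, 175, 151 and 94.3 CPM (log2 fold change -0.99 ± 0.18, adjusted p = 0.00229), and the adhesion protein Epcam 292, 332, 215 and 273 CPM and 150.5, 123, 161 and 88.1 CPM (log2 fold change -1.09 ± 0.20, adjusted p = 0.00234). In both, knockout library 4 was the lowest. Prkcz, a kinase of apical polarity, fell from 49.8 to 33.2 CPM (adjusted p = 0.00138). In the Hippo pathway, which reads polarity into cell fate, 5 of 25 genes fell and 2 rose, so that the 28.0% called was close to the 29.1% of all genes. The kinase Lats2 fell from 11.9 to 7.29 CPM (adjusted p = 0.00719), its scaffold Amot from 35.8 to 23.7 CPM (adjusted p = 0.00897) and its activator Mob1a from 118 to 95.7 CPM (adjusted p = 0.00628), and the list held 3 falls without wild-type library 2 or 4 or knockout library 3 or 4.

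**Figure D5:**
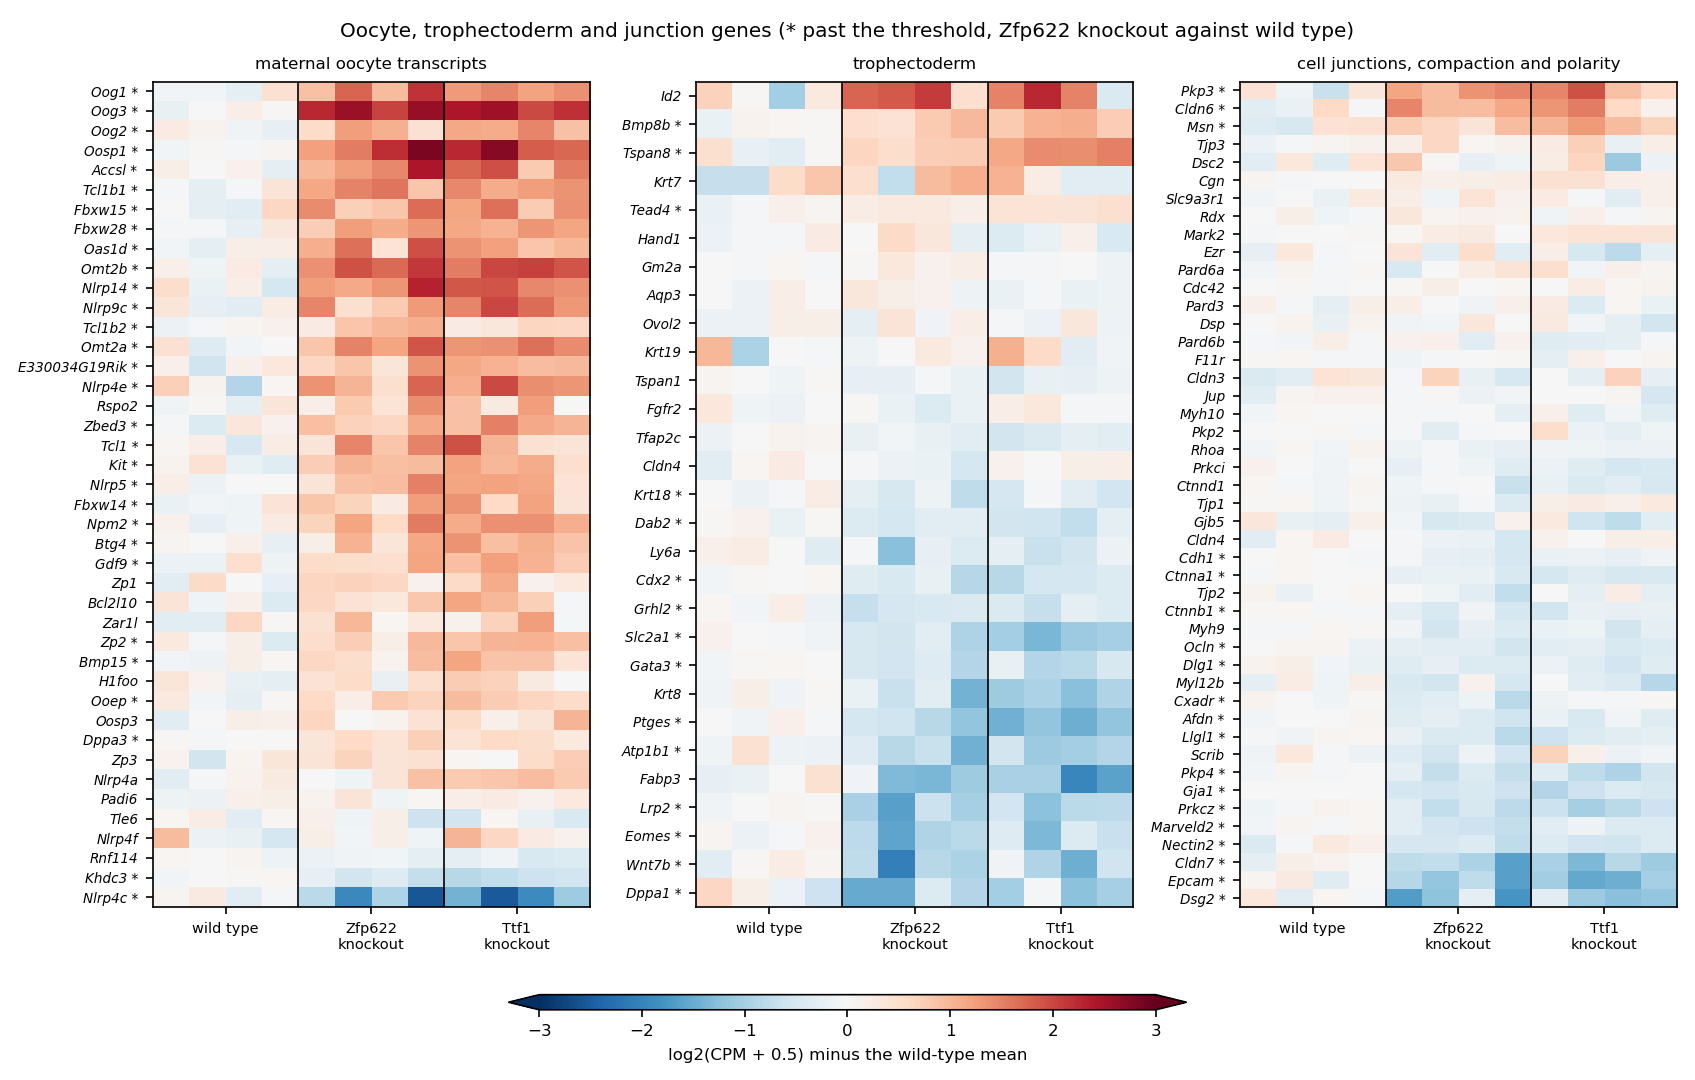
Heat maps of log2(CPM + 0.5) minus the wild-type mean for tested oocyte (42), trophectoderm (29) and junction (46 drawn) genes in the 12 morula libraries, ordered by fold change, with stars for genes past the threshold. Most oocyte rows are red in the Zfp622 knockout columns, and the lower parts of the trophectoderm and junction panels are blue, deepest in library 4 for Cldn7 and Epcam.

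Several enzymes that write or erase DNA methylation fell. Of 17 methylation genes 7 fell, 1 rose and 9 did not pass, where 13.5% of all genes tested fell and 15.6% rose. Tet2, which oxidises methylated cytosine, had 212, 227, 197 and 200.5 CPM in wild type and 131, 106.45, 133 and 88.4 CPM in the knockout (log2 fold change -0.87 ± 0.14, adjusted p = 0.000474), and Tet1 fell from 62.7 to 49.2 CPM (adjusted p = 0.0078). Dnmt1, the maintenance methyltransferase, fell from 12.2 to 7.50 CPM (adjusted p = 0.00116). Of 21 imprinted genes 6 fell, 2 rose and 13 did not pass. Slc38a4, a paternally expressed amino acid transporter, had 39.4, 47.8, 46.9 and 39.2 CPM and 23.0, 18.3, 30.5 and 18.7 CPM (log2 fold change -0.94 ± 0.17, adjusted p = 0.000993), and Sfmbt2, also paternally expressed, fell from 15.2 to 8.15 CPM (adjusted p = 0.00145).

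Most of the largest rises were of genes under 1 CPM in wild-type morulae. Among genes with a name whose libraries did not overlap and whose higher group had a mean of at least 5 CPM, Bbs7, of the ciliary BBSome, rose most, from 0.204, 0.617, 0 and 0.188 CPM to 10.9995, 4.32, 6.92 and 31.1 CPM (log2 fold change 5.74 ± 0.83, adjusted p = 0.000739). Cxcl10, a chemokine, had 0.272, 0.686, 0.283 and 0.376 CPM in wild type and 12.1, 14.9, 7.999 and 14.3 CPM in the knockout (log2 fold change 4.92 ± 0.59, adjusted p = 0.000178), and the tetraspanin Cd81 0.272, 0.480, 0.792 and 0.376 CPM and 13.0, 6.02, 5.51 and 27.6 CPM (log2 fold change 4.71 ± 0.96, adjusted p = 0.00539). Bbs7 and Cd81 varied about 5-fold to 7-fold among the knockout libraries, with library 4 the highest, while Cxcl10 was more even. Mlana, a melanosome protein, and the adhesion proteins Nectin4 and Mcam followed with log2 fold changes of 4.64, 4.50 and 4.35. Next came the transcription factors Nkx2-9 and Zfp750, with 4.11 and 3.99, then Btg2, Cyp4f17, a cytochrome P450, with 3.53, and Rasa4, a Ras GTPase activator, with 3.46. Hormad1, Mybl1, a Myb factor of male meiosis, with 3.23, Rb1 and Pramef25, of a multicopy family, with 3.14, complete the first 15. Adjusted p-values of these 15 ran from 1.39e-06 for Zfp750 to 0.00539 for Cd81. Several of the 15 were well expressed in wild type at the late 2-cell stage. Hormad1, Pramef25, Rb1 and Mybl1 were at 127, 124, 101 and 85.1 CPM there. Cd81, Mlana, Nectin4, Mcam and Nkx2-9 were under 1 CPM at that stage too, and the others lay between 1.37 CPM for Bbs7 and 24.5 CPM for Btg2.

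The 15 largest falls by the same rule were smaller in size than the 15 largest rises. Apoa1, an apolipoprotein of the yolk sac lineage, had 34.0, 29.5, 20.6 and 19.4 CPM in wild type and 9.35, 2.24, 8.07 and 2.77 CPM in the knockout (log2 fold change -2.19 ± 0.44, adjusted p = 0.00426). Map2k6, a kinase that activates p38, had 29.3, 32.4, 21.7 and 30.9 CPM and 9.20, 6.33, 10.3 and 2.45 CPM (log2 fold change -2.004 ± 0.39, adjusted p = 0.00324). Zfp622 was the third. Add3, an adducin of the membrane skeleton, fell from 9.80 to 2.87 CPM (adjusted p = 3.54e-05), and the X-linked Xlr3b and Xlr3a fell from 5.33 to 1.58 CPM (adjusted p = 0.00623) and from 13.8 to 4.55 CPM (adjusted p = 0.0129), with reads that their close copies may share. Mipol1, Uchl1, a deubiquitinating enzyme, Mocos, of the molybdenum cofactor, the noncoding RNA Lncenc1 and the glutaredoxin Glrx had log2 fold changes of -1.67, -1.64, -1.61, -1.56 and -1.56. Enpp3, the kinase Galk2, C2cd4a and Nlrp4c had -1.51, -1.44, -1.43 and -1.43. Uchl1 did not pass without wild-type library 1 or 2 or knockout library 2 or 4, nor C2cd4a without knockout library 2 or 4 (adjusted p from 0.0538 to 0.0813).

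The 8 most abundant genes with changes of at least 2-fold were Hspa5 and Epcam, given above, and 6 others. Abhd6, a lipase, had 135, 119, 114 and 80.9 CPM in wild type and 287, 305, 415 and 496 CPM in the knockout (log2 fold change 1.74 ± 0.21, adjusted p = 0.000193). Slc25a4, the main ADP/ATP carrier of heart and muscle, had 311, 379, 434 and 341 CPM and 193, 149, 195 and 106.40 CPM (log2 fold change -1.18 ± 0.18, adjusted p = 0.000608), and Acadl, of fatty acid oxidation, fell from 357 to 178 CPM (adjusted p = 4.3e-05). Ypel2 rose from 198 to 399 CPM (adjusted p = 0.000153), the proteoglycan Sdc4 from 173 to 349 CPM (adjusted p = 0.00804) and Perp, a p53 target of desmosomes, from 141 to 297 CPM (adjusted p = 0.00384).

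Markers of other cells were near 0 apart from a few genes that are also seen in other tissues. Of 18 blood cell markers 3 were abundant enough to test, and Ptprc, Fcer1g, Itgam, S100a8, S100a9 and Hbb-bt were at 0 in all 8 libraries. Their summed level ran from 10.5 to 14.1 CPM in wild type and from 28.6 to 37.9 CPM in the knockout, most of it Cd68, a lysosomal protein, which rose from 9.60 to 23.7 CPM (adjusted p = 0.000866), and Hba-a1, an alpha globin, from 1.62 to 5.64 CPM (adjusted p = 0.00172). Of 25 cumulus and granulosa cell markers 5 were tested, and the sum ran from 14.2 to 30.8 CPM and from 32.2 to 60.3 CPM, most of it Serpine2, at 18.1 and 38.7 CPM, with Has2 and Lum at 0 throughout. Serpine2 passed with all libraries (adjusted p = 0.0195) but not without wild-type library 4 or knockout library 1 or 4 (adjusted p from 0.0503 to 0.0658). Of 20 sperm markers 3 were tested, with sums of 16.1 to 21.8 CPM in wild type and 24.5 to 30.4 CPM in the knockout, most of it the centrosomal protein Odf2, and Tnp1, Smcp, Spem1 and Catsper1 were at 0. The protamine Prm2 had 0, 0.0686, 0 and 0 CPM in wild type and 0.299, 1.39, 0.538 and 0.870 CPM in the knockout. The part of such cells in the results above was not tested.

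The effect of the knockout at morula was set against its effect at the late 2-cell stage. In the fit of all 24 libraries, the effect of the knockout differed between the stages for 2010 of 18864 genes (10.7%), more positive at morula for 1216 and more negative for 794. At the late 2-cell stage itself 6 genes passed in that fit. Zfp622 was lower there too, at 161 ± 7.39 CPM in wild type and 60.4 ± 18.8 CPM in the knockout (log2 fold change -1.42, adjusted p = 0.0187), and the difference between its effects at the stages did not pass (difference -0.37, adjusted p = 0.524). Cdkn1a was at 60.3 ± 9.67 and 64.9 ± 17.3 CPM at the late 2-cell stage, and its effect differed by 2.42 on the log2 scale (adjusted p = 0.000136). Mdm2 differed by 1.50 (adjusted p = 1.03e-05), Lars by -0.86 (adjusted p = 0.0164) and Gja1 by -1.02 (adjusted p = 0.0316). For Bbs7 the levels at the earlier stage were 1.37 ± 0.396 and 1.42 ± 0.790 CPM and the difference was 5.69 (adjusted p = 0.000183).

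Against the Ttf1 knockout of the same stage, few genes passed in edgeR. Of the 14865 genes 34 passed (0.229%), 15 higher and 19 lower in the Zfp622 knockout, and 8 of them differed at least 2-fold. DESeq2 called 323 on the same counts. Ttf1, the target of the other knockout, was among them, at 24.6, 27.2, 23.9 and 25.9 CPM in its own knockout libraries (difference 0.93, adjusted p = 0.00041). Zfp622 was not, at 31.7, 48.1, 52.6 and 49.0 CPM in the Ttf1 knockout libraries (difference -1.58, adjusted p = 0.0592). Its levels in the knockouts did not overlap, so a gene that did not pass is not shown to be alike in both. Usp14, a deubiquitinating enzyme of the proteasome, had 682, 639.7, 659 and 639.8 CPM in wild type, 519.8, 531, 509.8 and 531 CPM in the Zfp622 knockout and 903, 1047, 792 and 843 CPM in the Ttf1 knockout (difference between knockouts -0.78, adjusted p = 9.46e-05). Every Zfp622 knockout library was below the wild-type libraries and every Ttf1 knockout library above them. Castor1, the arginine sensor of mTORC1, was at 154 ± 14.96 CPM in the Zfp622 knockout, 108.28 ± 12.8 CPM in the Ttf1 knockout and 105.84 ± 8.26 CPM in wild type (difference between knockouts 0.51, adjusted p = 0.0342). Sept10, Dynap, Ltbp4 and Ccnb3 were higher in the Ttf1 knockout, at 18.3, 24.9, 9.34 and 5.16 CPM against 7.83, 11.7, 4.69 and 1.86 CPM, with wild type at 4.78, 8.18, 3.56 and 0.765 CPM. Clp1, an RNA kinase, and Ivd, of leucine breakdown, were higher in the Zfp622 than in the Ttf1 knockout, at 132 and 16.8 CPM against 81.99 and 9.50 CPM. The wild-type libraries had 169, 199, 153 and 142 CPM of Clp1 and 15.2, 10.8, 12.8 and 15.5 CPM of Ivd. Against wild type neither passed, but Clp1 passed as lower in 12 of 18 alternatives. Among the members of the pathway and cell type lists, 1 passed between the knockouts in edgeR, and it was Ttf1. Lane and genotype cannot be told apart in this comparison, because the knockouts carry different lane numbers.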

How the data were processed

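Paired 150-base reads of poly-A RNA were aligned with HISAT2 2.2.1 and counted by featureCounts 2.0.1 per gene of the Ensembl 99 annotation of GRCm38, per the file headers and the submitters' processing notes. The authors deposited raw counts of read pairs per gene, 1 table for each of 24 libraries. The headers record no strand option, so overlapping and antisense genes cannot be told apart, and reads placed at several sites were not counted. Groups came from the titles, and no 2 libraries held identical counts. Of 55471 gene IDs 55144 had a symbol.

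Counts of the 12 morula libraries were fitted with edgeR 4.0.16 in R 4.3.3 (filterByExpr by group, TMM scaling, robust quasi-likelihood fit, Benjamini-Hochberg adjusted p below 0.05 over all genes tested). The Zfp622 and Ttf1 knockouts were compared in that fit, and the effects at both stages in a fit of all 24 libraries. CPM are TMM-scaled, and the mean ± SD is over 4 libraries. Alternatives included DESeq2 1.42.0, other scalings and filters, and leaving out each library. Same-numbered libraries did not deviate together.

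Genes named are Zfp622, Ttf1, tested neighbours within 500 kb, the 15 largest rises and falls without overlap and with a mean of at least 5 CPM, the 8 most abundant with changes of at least 2-fold, the 4 smallest p-values of each list with at least 3 calls, the 5 largest differences each way in the other comparisons, and a fixed set. Members of lists and these rules were chosen with earlier results of these data known. Bbc3, Aen, Huwe1, Krt8 and Serpine2 fall outside the rule and were chosen after their values were seen, as was Trp53. A few results are not reported here.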

Additional observations from a re-analysis of the deposited data

Results flagged for a closer look

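Among 426 sets of 4 values examined, 25 held a library whose gap to its nearest neighbour took so much of the range that it passed Dixon's critical value at 95%, where chance gives about 1 in 20. Zfp622 knockout library 4 accounted for 13 of the 25. It stood above the others for Hormad1 at 183 CPM, Mybl1 at 20.8, Rb1 at 9.57, Plk2 at 139.6, Mdm2 at 242, Phlda3 at 42.9, Mcl1 at 161, Spc25 at 156 and the summed blood cell markers at 37.9 CPM. It stood below the others for Galk2 at 0.949 CPM, Eprs at 148, Tpx2 at 150.3 and Psmd1 at 327 CPM. This library also had the least Zfp622 RNA, at 6.09 CPM. Its part in each result was tested only by leaving it out.

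Other knockout libraries that stood apart were library 3 for Perp at 208 CPM and Sfmbt2 at 10.3 CPM, library 2 for Gnl2 at 156 CPM and library 1 for Ccnb3 at 1.27 CPM. In wild type, library 1 stood apart for Pa2g4 at 1165 CPM, Nmd3 at 315, Eif1 at 503 and Ccne2 at 46.8 CPM, library 3 for Mlana at 0.622, Anln at 128 and Dynap at 11.99 CPM, and library 2 for Prm2 at 0.0686 CPM, where the other wild-type libraries were at 0.

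Of the 2010 genes whose effect at morula differed from that at the late 2-cell stage in edgeR's test of the difference, 10 are given, the largest without overlap at morula in each direction. On the log2 scale the differences were 5.69 for Bbs7, 4.81 for Cxcl10, 4.87 for Cd81, 5.66 for Mlana and 5.75 for Nectin4, with adjusted p-values of 0.000183, 0.00163, 0.0253, 0.025 and 0.00943. They were -2.12 for Xlr3b, -2.01 for Lncenc1, -3.49 for Msrb2 and -2.05 for the mitochondrial carrier Slc25a21, with adjusted p-values of 0.00665, 0.00105, 0.0431 and 0.000243. Msrb2, a methionine sulfoxide reductase, was at 0.0165 ± 0.0330 and 0.174 ± 0.205 CPM at the late 2-cell stage, a few read pairs at most. Mlana and Nectin4 were also rare there, at 0.109 and 0.0495 CPM and at 0.397 and 0.161 CPM in wild type and knockout. Their differences therefore exceed their log2 fold changes at morula, 4.64 and 4.50. For Serpinb6c the fitted difference was -4.98 (adjusted p = 0.041), which depends on the prior count and is no bound, because its wild-type libraries were all at 0 at the late 2-cell stage.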

How the results depend on the processing

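The 4321 genes called against wild type were 3320 to 4165 with 1 library left out, the rises 1660 to 2143 and the falls 1660 to 2022, each lowest without Zfp622 knockout library 4. Without both wild-type libraries that carry a second index number the counts were 2043 in all, 1086 higher and 957 lower, and with a change of at least 2-fold required they were 1278, 1103 and 175. DESeq2 called 4648, the fit without a filter 4647, total counts 4244, counts thinned to the smallest total 4221 and the fit of the 8 libraries 4365. With the replicate number as a block 4037 genes were called. The numbers do not pair the libraries, with correlations of -0.0303, -0.0368, -0.00173 and -0.0609 between the deviations of same-numbered libraries. Against the Ttf1 knockout DESeq2 called 323 genes, 141 higher and 182 lower, the block fit 15, with 7 and 8, and total counts called 11 lower. DESeq2 called 1219 genes as more negative at morula than at the late 2-cell stage, against 794 in edgeR. The causes of these moves were not tested, and the stricter threshold lowers a count by design. No other pair of wild-type libraries was left out. The smaller number of libraries and the second index number therefore cannot be told apart. Of 192 genes called among 208 examined for the text, 164 kept their call in all 18 alternatives and 28 lost it in at least 1, of which 22 did so without the second-index libraries. Calls were gained in 12 alternatives for Clp1, 6 for Krt8, 5 for Nanog and 2 for Huwe1. Depth limits the genes under 1 CPM, where a library holds few read pairs.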

Other observations

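A few groups lay outside the comparisons above, and they are set beside 15.6% of all genes higher and 13.5% lower. Of 15 serpins of the Serpinb6 and Serpinb9 cluster, which inhibit proteases inside cells, 4 were abundant enough to test at morula and 2 fell. Serpinb6c, a member with close copies, had 35.4, 33.9, 29.6 and 30.3 CPM in wild type and 28.4, 20.7, 23.7 and 15.9 CPM in the knockout (log2 fold change -0.54 ± 0.19, adjusted p = 0.0386), and the call was lost in 9 of 18 alternatives. Of 1350 pseudogenes tested, 141 rose and 79 fell, both smaller shares than over all genes. Of 31 genes of the mitochondrial chromosome tested, transfer and ribosomal RNAs included, 16 rose.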
